A study of Homo sapiens with 16 samples.

Results

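Lack of oxygen was compared with its presence in the cell line HUH6, which derives from a human hepatoblastoma, while both sides were exposed to SLC-0111, a sulfonamide that inhibits the carbonic anhydrases CAIX and CAXII. The members were all 8 SLC-0111 libraries of the 16 RNA libraries in the series, and every gene of the raw count table was taken. Of these, 4 came from cells held for 48 h under hypoxia (oxygen partial pressure 1%) with 100 µM SLC-0111, and 4 from cells held for 48 h under normoxia with 100 µM SLC-0111. The other 8 libraries received DMSO, the solvent, 4 in hypoxia and 4 in normoxia, and serve here to show where the oxygen effect differed. They also entered the same fit, with its filter, scaling and estimate of spread. All cells grew in DMEM with fetal bovine serum, antibiotics and GlutaMAX. The 4 libraries of a group are technical replicates per the labels, so p-values measure only the spread between such libraries of 1 line, not between separate cultures.

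Cells sense oxygen through prolyl hydroxylases, which mark the alpha subunits of the hypoxia-inducible factors (HIF) for destruction while oxygen is present. When oxygen is scarce the alpha subunits persist, pair with ARNT and bind DNA at short sites with the core ACGTG or GCGTG, from which genes of glucose uptake, glycolysis, vessel growth and pH control are switched on. Carbonic anhydrase IX, the gene product of CA9, is one of the best known of these targets: it sits on the cell surface, hydrates carbon dioxide and helps to hold the pH inside a glycolytic cell.

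Total counts were 19.51 to 49.25 M in hypoxia SLC-0111 and 21.60 to 40.09 M in normoxia SLC-0111, so a gene without counts could have up to 3 reads, or 0.0609 to 0.154 CPM in hypoxia and 0.0748 to 0.139 CPM in normoxia, where CPM are counts scaled to a library of 1 M. Of 12 markers of hepatoblastoma and hepatocytes, 11 reached 1 CPM, AFP among them at 519 to 543 CPM in hypoxia and 544 to 745 CPM in normoxia. The exception was DLK1, with 6 counts over all 8 libraries. On the first principal component of the 8 libraries, with 63.6% of the variance, hypoxia replicates 1 to 3 lay at -46.6, -44.6 and -43.1 and replicate 4 at -32.1, against 41.0 to 42.8 for normoxia. Hypoxia replicate 4, the deepest library, stood apart: several stress-response genes were lower in it than in the other hypoxia libraries, and BHLHE40 had 212.8 CPM there against 299.5 to 305.3 CPM in the others. Normoxia replicate 4 had the lowest protein-coding share of the counts (80.63%) and the highest mitochondrial share (15.27%); these shares were 88.41 to 92.06% and 6.41 to 8.91% in hypoxia. Levels below are CPM after TMM scaling, in the order replicates 1 to 4 for hypoxia and replicates 1, 3, 4 and the unnumbered library for normoxia, and changes are fitted log2 fold changes ± SE, hypoxia over normoxia. Every adjusted p is that of the quasi-likelihood test in edgeR after Benjamini-Hochberg correction.

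With SLC-0111 present, oxygen deprivation was followed by changes in nearly as many genes upward as downward, while the large changes were mostly upward. Of 18385 genes tested, 4398 (23.9%) were higher and 4469 (24.3%) lower at an adjusted p under 0.05. At least 2-fold changes among them numbered 1046 upward (5.69%) and 472 downward (2.57%). Without hypoxia replicate 4 the calls were 4307 higher and 4401 lower. The 4 hypoxia libraries lay wholly above the 4 normoxia libraries in 4094 genes (22.3%) and wholly below them in 3930 (21.4%), together 8024 (43.6%). Protein-coding genes were higher in 3847 and lower in 3612 of 13572 cases, whereas long noncoding genes were higher in 344 and lower in 567 of 2947, with a median of log2 -0.16 against -0.03 over all genes.

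The gene of the compound's own target had the largest rise. CA9 (ENSG00000107159, chromosome 9, 35673856 to 35681159, GRCh38) had 26.45, 29.96, 26.78 and 22.88 CPM in hypoxia, against 0.09, 0, 0.05 and 0.05 CPM in normoxia. It was thus present in every hypoxia library and near the detection limit in every normoxia library. The counts behind these levels were 3293 in hypoxia and 5 in normoxia, a ratio of scaled totals of 569 with a 95% counting interval of 244 to 1750, and the fitted change was log2 9.04 (adjusted p = 1.74e-17), for which the counting interval is the better guide to the error. Of the exonic bases of CA9, 38.5% are shared with ARHGEF39 on the other strand, and whether counting used the strand is not given in the sources used here. CA12, the gene of the other stated target, behaved differently. It had 6.75, 6.35, 5.47 and 5.53 CPM in hypoxia, against 5.28, 4.53, 5.30 and 5.06 CPM in normoxia. The hypoxia libraries were all above the normoxia libraries by a small margin, and the change did not pass the test (log2 0.25 ± 0.11, adjusted p = 0.0667), though it did with hypoxia replicate 4 left out (log2 0.29, adjusted p = 0.046). Among 12 carbonic anhydrase genes tested, 3 were higher and 1 lower, against 23.9% higher and 24.3% lower over all genes tested. The higher count was 5 without hypoxia replicate 3. CA4, a membrane-anchored enzyme, had 11.98 ± 0.256 CPM in hypoxia and 8.62 ± 0.722 CPM in normoxia (SD, n = 4 each; log2 0.48 ± 0.09, adjusted p = 0.00015). CA2, a cytosolic enzyme, fell to 19.63 ± 1.06 CPM in hypoxia, against 28.87 ± 5.75 CPM in normoxia (log2 -0.56 ± 0.09, adjusted p = 2.65e-05). The third higher gene was CA11 (log2 1.29), which averaged under 1 CPM in both groups.

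Next to CA9, the steepest rises were in genes of channels, signalling and secreted factors that were close to silent in normoxia. GABRA2 encodes a subunit of the GABA-A chloride channel and had 13.51, 14.90, 13.21 and 12.41 CPM in hypoxia, against 0, 0.04, 0.08 and 0.05 CPM in normoxia. Its counts were 1691 in hypoxia and 5 in normoxia, a ratio of 292 with an interval of 125 to 901 (log2 8.07, adjusted p = 1.21e-17). PNCK, a calmodulin-dependent kinase, stood at 27.40 ± 2.05 CPM in hypoxia and 0.12 ± 0.0642 CPM in normoxia, on 3394 and 13 counts, a ratio of 226 with an interval of 132 to 424. AQP10, a channel for water and glycerol, had 56.86, 69.60, 57.44 and 53.10 CPM in hypoxia, against 0.14, 0.11, 0.50 and 0.41 CPM in normoxia. STC1, a secreted stanniocalcin that acts on calcium and phosphate balance, had 7.32 to 9.26 CPM in hypoxia and 0 to 0.07 CPM in normoxia, on 1059 and 5 counts, a ratio of 183 with an interval of 78.2 to 565. In each of these genes the groups did not overlap, which the choice of genes required.

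Other steep rises were those of FGD5, a guanine nucleotide exchange factor (log2 5.04 ± 0.17), LGI4, a secreted protein of glia (4.94 ± 0.10), GNRH2, a gonadotropin-releasing hormone (4.73 ± 0.10), and CYP26A1, which degrades retinoic acid (4.63 ± 0.27), all with an adjusted p of 2.07e-12 or less. By the gain in CPM, the largest rises were those of the glucose transporter SLC2A3, creatine kinase CKB, the glycolytic enzymes ENO1 and LDHA, and NDRG1, a hypoxia-responsive growth regulator. CKB, which buffers ATP through phosphocreatine, had 6513, 6830, 7093 and 5797 CPM in hypoxia, against 1019, 897.9, 1026 and 1044 CPM in normoxia (log2 2.72 ± 0.07, adjusted p = 1.27e-19).

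**Figure D1:**
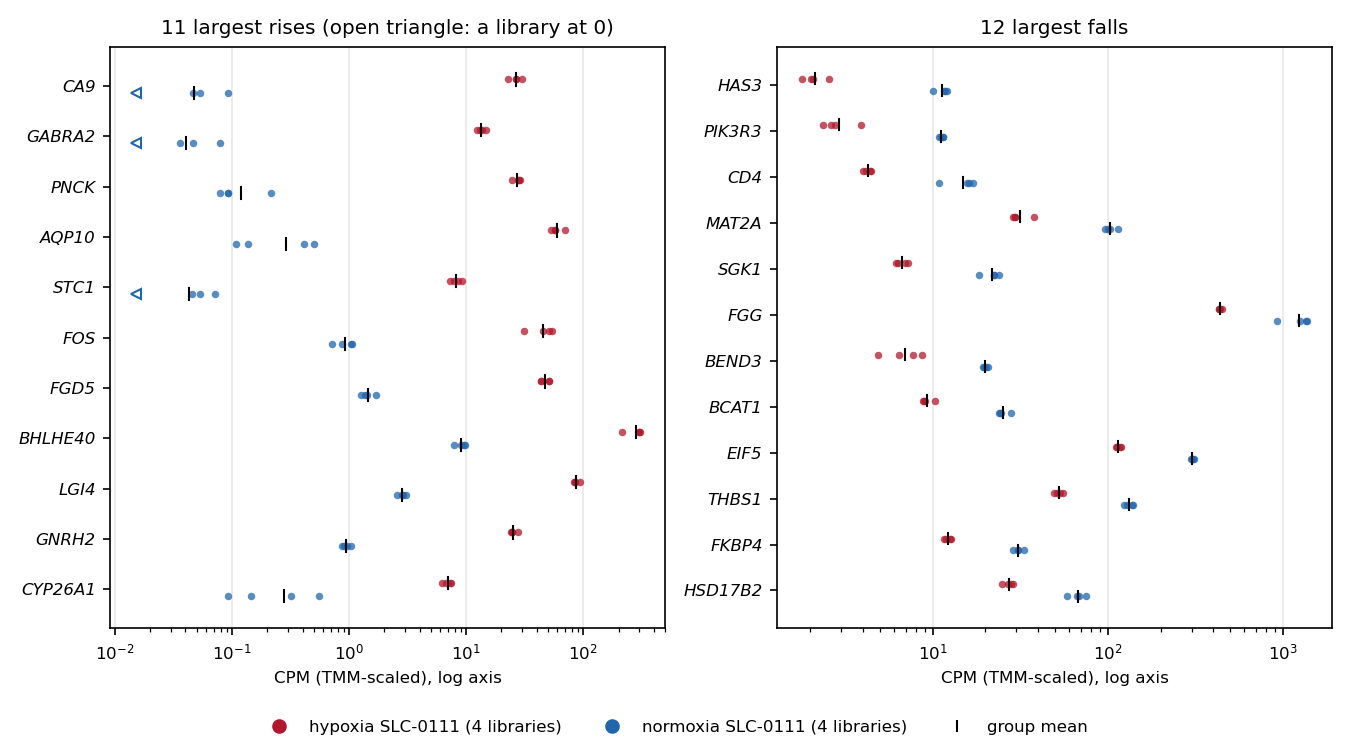
The 11 largest rises and 12 largest falls by fitted log2 fold change, with the TMM-scaled CPM of each SLC-0111 library on a log axis (called protein-coding genes with a group mean of 5 CPM or more; hypoxia red, above; normoxia blue, below; black ticks are group means of 4 libraries). Hypoxia and normoxia libraries do not overlap in any of these genes, which the choice of genes required, and rises span from log2 4.63 for CYP26A1 to 9.04 for CA9 while the falls reach log2 -2.37 for HAS3.

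The falls were smaller, and the steepest were in genes of matrix, signalling, methyl-group supply and liver secretion. HAS3 (chromosome 16, 69105564 to 69118719), which makes hyaluronan, had 1.80, 2.02, 2.09 and 2.56 CPM in hypoxia, against 11.70, 11.60, 10.04 and 12.00 CPM in normoxia (log2 -2.37 ± 0.18, adjusted p = 3.58e-09). PIK3R3, a regulatory subunit of PI3-kinase, stood at 2.92 ± 0.667 CPM in hypoxia and 11.21 ± 0.305 CPM in normoxia (log2 -1.89 ± 0.19). MAT2A, the enzyme that makes S-adenosylmethionine outside the adult hepatocyte, had 28.82, 29.51, 29.62 and 38.04 CPM in hypoxia, against 100.3, 96.04, 113.7 and 102.9 CPM in normoxia (log2 -1.70 ± 0.17, adjusted p = 2.42e-06). Hypoxia replicate 4 was nearer to normoxia here than the other 3 libraries. FGG, the gamma chain of fibrinogen, fell to 437.2 ± 8.9 CPM in hypoxia, against 1224 ± 206 CPM in normoxia (log2 -1.48 ± 0.08). EIF5, a translation initiation factor, had 114.5 ± 3.6 CPM in hypoxia and 303.5 ± 4.38 CPM in normoxia (log2 -1.41 ± 0.05, adjusted p = 4.09e-17). Further falls among the 12 were CD4 (log2 -1.80), the kinase SGK1 (-1.70), the DNA-binding protein BEND3 (-1.48), the branched-chain aminotransferase BCAT1 (-1.45), thrombospondin THBS1 (-1.33), the HSP90 cochaperone FKBP4 (-1.32) and HSD17B2, which oxidises oestradiol (-1.31). CD4 is also a leukocyte surface protein. Of 9 leukocyte markers PTPRC, which defines leukocytes, had 4 counts over the 8 libraries. The macrophage markers CSF1R (14.6 to 23.8 CPM in hypoxia and 3.52 to 5.24 CPM in normoxia, log2 2.27, adjusted p = 5.79e-06) and CD14 (log2 1.26, adjusted p = 1.03e-05) were higher, and LCP1 had 376 to 461 CPM in hypoxia and 385 to 425 CPM in normoxia. The list summed to 395 to 490 CPM in hypoxia and 390 to 433 CPM in normoxia, and its part in the CD4 values was not tested. By loss of CPM the largest falls were 4 mitochondrially encoded genes and FTL, the light chain of ferritin (2916 ± 225 CPM in hypoxia and 3947 ± 188 CPM in normoxia, log2 -0.44 ± 0.07).

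Known HIF targets rose almost as a body. Of 37 tested genes on the list 33 were higher and 1 lower, with a median of log2 1.80. Their summed level was 6725 to 8081 CPM in hypoxia and 2093 to 2226 CPM in normoxia. BHLHE40, a transcriptional repressor of the clock and of differentiation, had 301.8, 305.3, 299.5 and 212.8 CPM in hypoxia, against 9.04, 9.63, 7.91 and 9.79 CPM in normoxia (log2 4.95 ± 0.27, adjusted p = 8.22e-09). ANKRD37 (log2 3.88 ± 0.21) and MIR210HG, the host transcript of miR-210 (3.84 ± 0.16), rose as well; 35.2% of the exonic bases of ANKRD37 are shared with UFSP2. NDRG1 had 1734 ± 172 CPM in hypoxia and 135.9 ± 13.1 CPM in normoxia (log2 3.68 ± 0.14). BNIP3, which targets mitochondria for removal, rose to 654.8 ± 48.6 CPM in hypoxia, against 84.35 ± 5.41 CPM in normoxia (log2 2.96 ± 0.08). VEGFA, the growth factor of vessels, rose less (194.4 ± 22.4 CPM in hypoxia and 68.98 ± 3.04 CPM in normoxia, log2 1.49 ± 0.17), and EPO, the hormone of red cell formation, had 9.25 ± 1.30 CPM in hypoxia and 2.96 ± 0.626 CPM in normoxia (log2 1.66 ± 0.15). The 1 lower gene was NDUFA4L2, a paralogue of a respiratory chain subunit, on only 45 counts in hypoxia and 108 in normoxia (log2 -1.45 ± 0.38, adjusted p = 0.00285); it was not tested under a filter of 1 CPM in 4 libraries. NDUFA4L2, BNIP3, VEGFA and EPO were picked out after their values were seen.

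Promoters of 4 called genes of the HIF list are printed to show the HIF core letters beside the genes that rose most; they are RefSeq windows (GRCh38.p14) from 250 bases before to 50 after the annotated start, on the gene's strand, 5′ to 3′, with ACGTG and GCGTG of either strand in capitals. CA9 and BHLHE40 follow the rule for the largest rises, and ANKRD37 and MIR210HG are the next called genes of the list with a usable window. The windows are chr9:35673678-35673977 (plus strand), chr3:4979187-4979486 (plus), chr4:185396591-185396890 (plus) and chr11:568408-568707 (minus).
CA9: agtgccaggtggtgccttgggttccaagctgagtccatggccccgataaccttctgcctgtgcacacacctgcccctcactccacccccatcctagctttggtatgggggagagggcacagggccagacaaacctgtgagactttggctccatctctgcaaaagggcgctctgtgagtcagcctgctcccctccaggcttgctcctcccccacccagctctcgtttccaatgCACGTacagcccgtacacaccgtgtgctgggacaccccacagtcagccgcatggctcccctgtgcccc
BHLHE40: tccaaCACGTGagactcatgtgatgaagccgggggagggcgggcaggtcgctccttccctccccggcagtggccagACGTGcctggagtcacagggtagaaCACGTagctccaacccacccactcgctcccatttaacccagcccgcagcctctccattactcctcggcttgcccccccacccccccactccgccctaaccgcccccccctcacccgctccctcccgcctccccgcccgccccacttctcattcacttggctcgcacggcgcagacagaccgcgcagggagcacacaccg
ANKRD37: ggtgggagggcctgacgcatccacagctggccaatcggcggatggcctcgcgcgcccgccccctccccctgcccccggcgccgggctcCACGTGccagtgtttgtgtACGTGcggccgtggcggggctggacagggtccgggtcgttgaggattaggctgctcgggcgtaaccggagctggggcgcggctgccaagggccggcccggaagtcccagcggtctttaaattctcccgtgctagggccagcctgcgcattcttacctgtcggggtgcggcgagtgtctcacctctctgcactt
MIR210HG: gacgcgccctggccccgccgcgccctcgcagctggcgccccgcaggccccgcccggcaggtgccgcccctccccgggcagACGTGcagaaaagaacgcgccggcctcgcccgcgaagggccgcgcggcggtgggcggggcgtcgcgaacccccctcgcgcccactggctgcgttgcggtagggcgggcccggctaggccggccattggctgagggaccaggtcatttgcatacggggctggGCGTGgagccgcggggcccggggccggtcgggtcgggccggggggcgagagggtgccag
The CA9 window holds 1 ACGTG, on the minus strand and 18 bases before the start. The BHLHE40 window holds 4 and the ANKRD37 window 3, where the palindrome CACGTG counts on both strands as a pair of overlapping matches. The MIR210HG window holds 1 ACGTG and 1 GCGTG. Of all 27305 promoter windows of this length, 21.6% held ACGTG, 36.3% GCGTG and 48.4% either, so a match alone is common. Only 61.6% of the tested genes and 75.7% of the HIF list had a window, too few for a comparison of shares between gene groups, and none is given.

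The genes that sense oxygen moved as well. EGLN1, the main prolyl hydroxylase of HIF, rose to 246.9 ± 18.3 CPM in hypoxia, against 66.17 ± 1.9 CPM in normoxia (log2 1.90 ± 0.11). CITED2, which competes with HIF for its coactivator, had 449.0 ± 17.7 CPM in hypoxia and 172.0 ± 6.51 CPM in normoxia (log2 1.38 ± 0.07). EPAS1, the gene of HIF-2 alpha, went the other way, with 206.6, 207.2, 203.4 and 204.2 CPM in hypoxia and 328.0, 314.7, 335.0 and 314.8 CPM in normoxia (log2 -0.65 ± 0.04, adjusted p = 2.91e-12). Both groups were tight and did not overlap. HIF1A, the gene of HIF-1 alpha, rose by a small amount (log2 0.20 ± 0.05, adjusted p = 0.00254). In all, 7 of 11 tested genes of this list were higher and 3 lower. Of 19 histone lysine demethylases, which like the HIF hydroxylases use oxygen and 2-oxoglutarate except for KDM1A, 15 were higher and 3 lower with a median of log2 0.46. KDM3A led with 163.8 ± 8.78 CPM in hypoxia and 44.83 ± 2.54 CPM in normoxia (log2 1.87 ± 0.10), followed by KDM7A (1.36 ± 0.15), KDM6B (0.96 ± 0.10) and KDM4B (0.91 ± 0.07).

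Glucose uptake and glycolysis rose together: 17 of 20 tested genes were higher and 1 lower, with a median of log2 1.37. The summed level of the list was 28870 to 33820 CPM in hypoxia and 7681 to 8216 CPM in normoxia. SLC2A1, the basal glucose transporter, had 1014, 952.7, 970.7 and 691.5 CPM in hypoxia, against 77.13, 66.55, 70.54 and 69.14 CPM in normoxia (log2 3.68 ± 0.17, adjusted p = 5.34e-10). SLC2A3, the high-affinity transporter, had 13160, 16930, 16930 and 15460 CPM in hypoxia, against 2716, 2739, 3247 and 2995 CPM in normoxia (log2 2.42 ± 0.11, adjusted p = 1.48e-12). LDHA, which turns pyruvate into lactate, had 2235 ± 181 CPM in hypoxia and 359.2 ± 19.1 CPM in normoxia (log2 2.64 ± 0.07). HK2, the first enzyme of the pathway, rose by log2 3.34 ± 0.15, ENO1 by 1.82 ± 0.06, and GAPDH, often used as a reference gene, by 1.01 ± 0.06. The lower gene was PFKM (log2 -0.15, adjusted p = 0.0262), which was not called when hypoxia replicate 1, 3 or 4 or normoxia replicate 1 or the unnumbered normoxia library was left out.

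Glycogen genes went in both directions. PGM1, which links glucose 6-phosphate to glycogen, rose to 90.72 ± 5.24 CPM in hypoxia, against 13.20 ± 0.595 CPM in normoxia (log2 2.78 ± 0.06), and the branching enzyme GBE1 (1.91 ± 0.09), the glycogen synthase GYS1 (1.33 ± 0.06) and the targeting subunit PPP1R3B (1.36 ± 0.09) were higher too. Of 19 tested genes 11 were higher and 7 lower, against 23.9% higher and 24.3% lower over all genes tested. Of the lactate carriers SLC16A3 rose (21.08 ± 2.29 CPM in hypoxia and 9.92 ± 0.81 CPM in normoxia, log2 1.08 ± 0.08), SLC16A1 rose by log2 0.32 ± 0.05 and SLC16A8 fell by 0.82 on the log2 scale (adjusted p = 0.00397). Among all 17 acid-base and lactate transport genes 5 were higher and 6 lower, beside the same shares over all genes tested. The bicarbonate carriers differed in direction: SLC4A8 rose by log2 1.19 ± 0.06, and SLC4A7 fell by 0.53 on the log2 scale (adjusted p = 0.00208). With a covariate for the protein-coding share, 3 of these genes were lower.

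Among genes of the mitochondrion more were lower than higher, and PDK1 was the steepest of those that rose. Over all genes tested 23.9% were higher and 24.3% lower. PDK1, the kinase that closes pyruvate dehydrogenase, had 224.4, 236.1, 222.7 and 213.1 CPM in hypoxia, against 10.19, 10.77, 11.88 and 9.10 CPM in normoxia (log2 4.40 ± 0.12, adjusted p = 8.78e-16). PDK3, another such kinase, rose by log2 0.62 ± 0.06. Of 28 genes of pyruvate entry and the citric acid cycle 5 were higher and 11 lower, among the lower SUCLG1 (83.38 ± 2.35 CPM in hypoxia and 111.5 ± 7.06 CPM in normoxia, log2 -0.42 ± 0.05) and IDH3A (-0.39 ± 0.08; 38.2% of its exonic bases are shared with ACSBG1). A filter of 1 CPM in 4 libraries gave 8 higher. Of 39 nuclear genes of the respiratory chain, NDUFC1 was higher and 17 were lower, all by less than 0.45 on the log2 scale. That count was 26 with a covariate for the protein-coding share and 11 without hypoxia replicate 2. Of the 13 mRNAs of the mitochondrial genome 9 were lower and 0 higher, with a median of log2 -0.55. MT-ND2 had 666.1, 696.0, 785.4 and 1192 CPM in hypoxia, against 1472, 1604, 1690 and 1766 CPM in normoxia (log2 -0.97 ± 0.25, adjusted p = 0.00701). Hypoxia replicate 4 was the nearest to normoxia, and without it 12 of the 13 were lower.

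**Figure D2:**
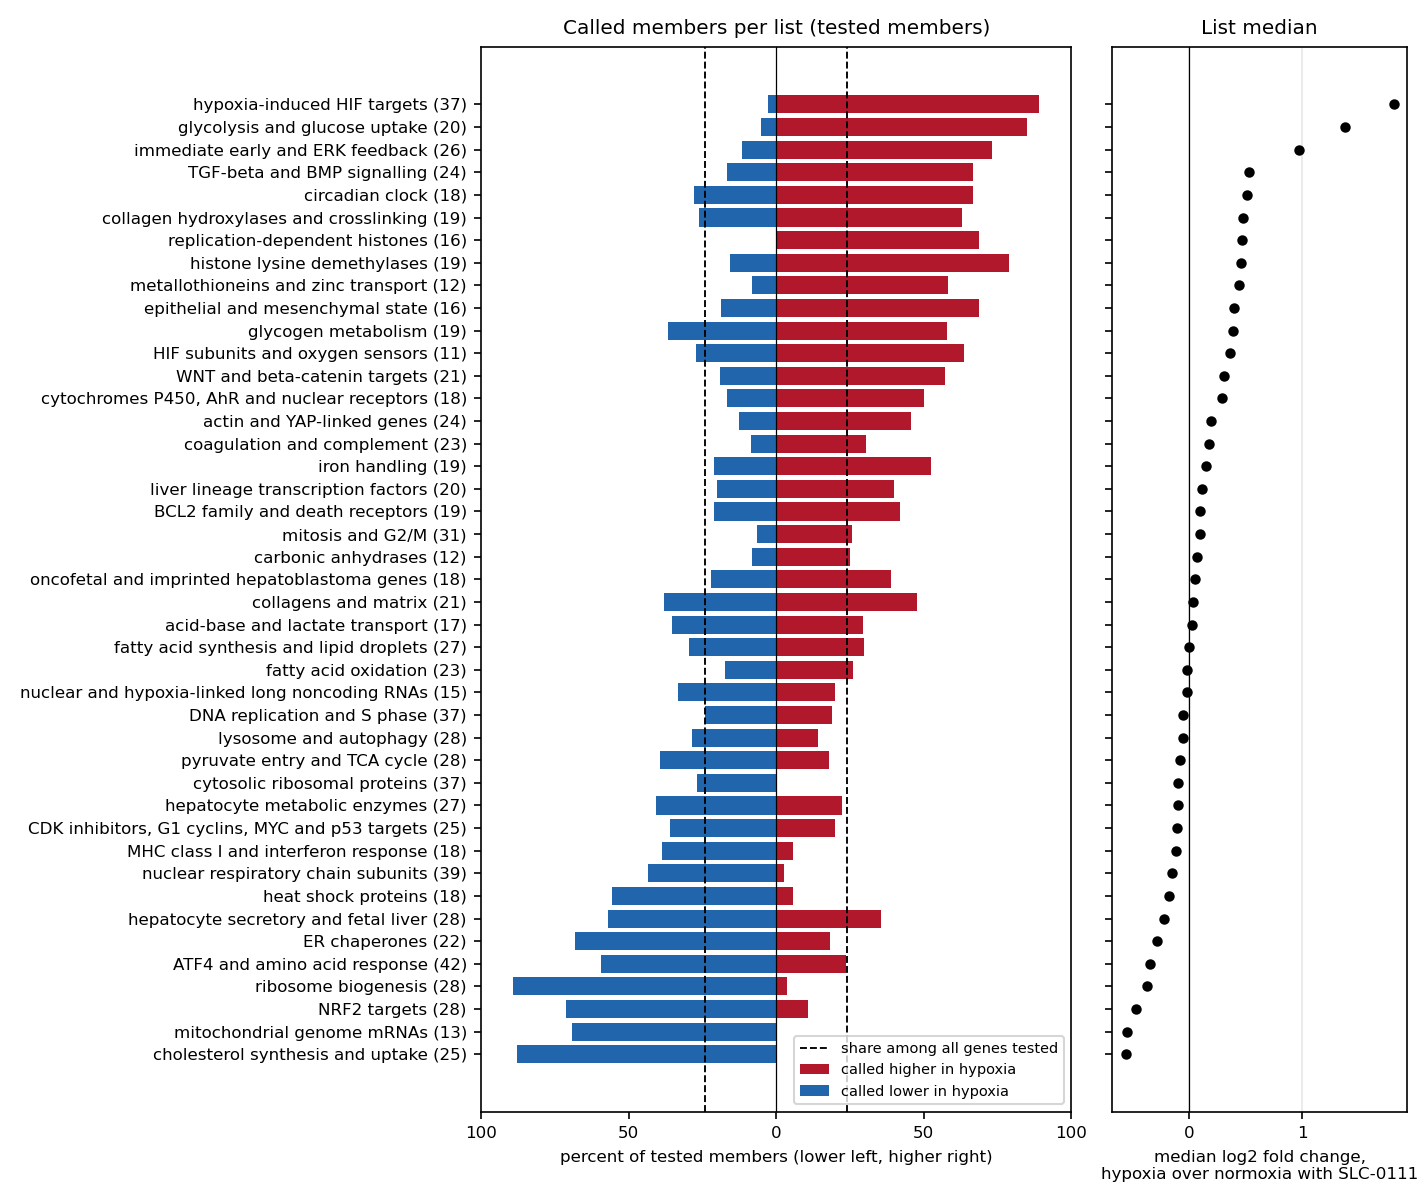
Each gene list by the percent of its tested members (number in brackets) called higher (red, right) or lower (blue, left) in hypoxia with SLC-0111, beside its median log2 fold change. Dashed lines mark the shares among all genes tested, 23.9% higher and 24.3% lower; HIF targets and glycolysis stand at the top and cholesterol synthesis at the bottom.

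Immediate early genes, which answer stress and growth signals within minutes to hours, were listed together with feedback genes of ERK signalling. At 48 h 19 of 26 tested genes of this list were higher and 3 lower, with a median of log2 0.97. FOS, a subunit of AP-1, had 53.62, 51.21, 45.31 and 30.91 CPM in hypoxia, against 1.06, 0.72, 1.03 and 0.87 CPM in normoxia (log2 5.60 ± 0.48, adjusted p = 7.54e-07). JUN, its partner, had 731.9, 726.0, 713.6 and 512.2 CPM in hypoxia, against 54.28, 53.05, 55.96 and 50.10 CPM in normoxia (log2 3.65 ± 0.32, adjusted p = 9.44e-07). In both genes hypoxia replicate 4 was the lowest library of its group and far above every normoxia library. DUSP1, a phosphatase of stress kinases, rose by log2 3.40 ± 0.43, and KLF4, a zinc finger factor, by 3.09 ± 0.30. The list summed to 3122, 3012 and 2973 CPM in hypoxia replicates 1 to 3 and 2250 CPM in replicate 4, against 791.7 to 819.6 CPM in normoxia. Without hypoxia replicate 4 the list still had 19 higher genes, and 1 lower; the lower count was 1 without hypoxia replicate 2 too.

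In the lists of other signalling pathways more genes were higher than lower, beside 23.9% higher and 24.3% lower over all genes tested. Of 24 TGF-beta and BMP genes 16 were higher and 4 lower (median log2 0.53). Among them were the inhibitor SMAD7 (338.9 ± 59.8 CPM in hypoxia and 93.37 ± 3.15 CPM in normoxia, log2 1.86 ± 0.22) and the dominant-negative helix-loop-helix factors ID1 (1.63 ± 0.15) and ID3 (1.49 ± 0.20). Of 24 actin and YAP-linked genes 11 were higher and 3 lower, led by ANKRD1 (log2 2.40 ± 0.33), CYR61 (1.71 ± 0.27) and AMOTL2 (1.55 ± 0.13). Of 18 clock genes 12 were higher and 5 lower. BHLHE41, a paralogue of BHLHE40, had 138 counts in hypoxia and 5 in normoxia, a ratio of 23.9 with an interval of 9.98 to 74.6, and NFIL3 (log2 1.81 ± 0.18) and NR1D1 (1.62 ± 0.19) rose too, both repressors of transcription, and so did the activator RORA (0.77 ± 0.10), while the activators CLOCK (-0.36) and ARNTL (-0.17) and the repressor CRY1 (-0.36) were lower. Of 21 WNT and beta-catenin targets 12 were higher and 4 lower (median log2 0.31). AXIN2, a feedback inhibitor of the pathway, had 166.0, 159.9, 173.4 and 154.6 CPM in hypoxia, against 78.92, 83.33, 75.25 and 77.36 CPM in normoxia (log2 1.05 ± 0.05, adjusted p = 8.75e-14). LGR5, a receptor of R-spondins, was higher as well (58.32 ± 2.38 CPM in hypoxia and 28.12 ± 1.82 CPM in normoxia, log2 1.05 ± 0.05), and DKK1, a secreted inhibitor, fell by 1.16 on the log2 scale.

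Matrix-modifying enzymes were mostly higher, while matrix genes themselves went both ways. Of 19 collagen hydroxylases and crosslinking genes 12 were higher and 5 lower, against 23.9% higher and 24.3% lower over all genes tested. LOX, which crosslinks collagen, had 52.22, 54.28, 49.74 and 42.88 CPM in hypoxia, against 3.95, 4.63, 3.93 and 3.72 CPM in normoxia (log2 3.61 ± 0.12, adjusted p = 3.7e-15). PLOD2, a lysyl hydroxylase, had 173.1 ± 11.5 CPM in hypoxia and 15.35 ± 0.633 CPM in normoxia (log2 3.50 ± 0.07), and P4HA2, a prolyl hydroxylase of collagen, rose by log2 1.09 ± 0.06. Of 21 collagens and matrix genes 10 were higher and 8 lower, with COL1A2 up by log2 1.45 ± 0.12 and COL5A2 at -0.98 ± 0.06. ITGA5, the fibronectin receptor subunit, rose by log2 2.05 ± 0.13, and SNAI1, a repressor of epithelial genes, by 0.84 ± 0.12; epithelial CLDN3 was also higher (0.72 ± 0.10). Markers of stellate cells and fibroblasts summed to 63.0 to 69.0 CPM in hypoxia and 29.0 to 31.3 CPM in normoxia, of which PDGFRB and RGS5 made up most, while DCN and LUM had 2 counts each over the 8 libraries. The 9 endothelial markers summed to 55.3 to 59.1 CPM in hypoxia and 56.2 to 63.6 CPM in normoxia. PECAM1 made up most of that sum, and CDH5, the other endothelial marker tested, was higher (0.972 to 1.91 CPM in hypoxia and 0.251 to 0.506 CPM in normoxia, log2 1.91, adjusted p = 0.000166). The part of these cell type markers in the matrix values was not tested.

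Cholesterol synthesis was lower in hypoxia. Of 25 genes of cholesterol synthesis and uptake 22 were lower and 0 higher, with a median of log2 -0.56. MVK, the mevalonate kinase, had 50.11, 51.69, 49.52 and 54.68 CPM in hypoxia, against 104.3, 100.7, 85.50 and 99.61 CPM in normoxia (log2 -0.92 ± 0.10, adjusted p = 7.61e-07). NSDHL (-0.91 ± 0.12), MVD (-0.83 ± 0.10) and HSD17B7 (-0.77 ± 0.08), all enzymes of the pathway, fell by like amounts. Genes of fatty acid synthesis and lipid droplets went both ways, with 8 of 27 higher and 8 lower. PLIN2, which coats lipid droplets, rose to 131.9 ± 16.7 CPM in hypoxia, against 47.84 ± 1.9 CPM in normoxia (log2 1.46 ± 0.14), and HILPDA, which blocks lipolysis, by log2 2.28 ± 0.11. GPAM, which starts glycerolipid synthesis, fell by 1.22 on the log2 scale (50.60 ± 2.39 CPM in hypoxia and 118.2 ± 12.8 CPM in normoxia). Beside shares of 23.9% higher and 24.3% lower over all genes tested, fatty acid oxidation had 6 higher and 4 lower of 23. ACADVL (log2 0.59 ± 0.05) and ECI1 (-0.26 ± 0.08) were among them. The lower count was 7 without normoxia replicate 4 and 8 with a covariate for the protein-coding share.

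Genes of ribosome biogenesis fell with few exceptions. Of 28 genes of ribosome biogenesis 25 were lower and only FBL was higher (log2 0.28; 2 genes were higher without hypoxia replicate 4), with a median of log2 -0.37. RRS1, which assembles the large subunit, had 9.02, 9.36, 10.40 and 9.77 CPM in hypoxia, against 17.53, 16.92, 16.57 and 18.57 CPM in normoxia (log2 -0.84 ± 0.10, adjusted p = 1.22e-07). NOP16 (-0.80 ± 0.11) and RRP9 (-0.68 ± 0.11), both nucleolar, were close to it. The ribosomal proteins themselves changed less: 10 of 37 were lower, against 24.3% of all genes tested, and 0 higher, with a median of log2 -0.10. RPL7 led with 1375 ± 108 CPM in hypoxia and 1659 ± 126 CPM in normoxia (-0.27 ± 0.08). This count was unstable: it was 33 with a covariate for the protein-coding share and 19 without normoxia replicate 4, but 1 without hypoxia replicate 2, 3 without the unnumbered normoxia library, 4 without hypoxia replicate 1 or 4 or normoxia replicate 3, and 5 without normoxia replicate 1.

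Antioxidant and protein-folding genes were mostly lower too. Of 28 NRF2 targets 20 were lower and 3 higher (median log2 -0.46). NQO1, a quinone reductase, had 0.98, 1.89, 1.66 and 1.73 CPM in hypoxia, against 4.04, 3.66, 3.85 and 4.60 CPM in normoxia (log2 -1.31 ± 0.17, adjusted p = 8.97e-07). TXNRD1, the thioredoxin reductase, fell by 0.75 on the log2 scale. HMOX1, which breaks down haem, was one of the 3 higher (0.73 ± 0.05), with ABCC3 and OSGIN1 at 0.29 each. Of 18 heat shock proteins 10 were lower and only HSPB8 was higher (log2 2.11 ± 0.29). HSPA8, the constitutive chaperone, had 980.3, 1031, 1019 and 999.7 CPM in hypoxia, against 1862, 1770, 1734 and 1794 CPM in normoxia (log2 -0.83 ± 0.06, adjusted p = 5.02e-11). Of 22 chaperones of the endoplasmic reticulum 15 were lower and 4 higher, with XBP1, a factor of the unfolded protein response, at -0.76 ± 0.08 and HSPA5, its main chaperone, at -0.59 ± 0.07. The higher count was 2 with scaling by library size, with a covariate for the protein-coding share, and without hypoxia replicate 1 or 2, normoxia replicate 3 or 4, or the unnumbered normoxia library.

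The list of ATF4 targets held changes in both directions. Of 42 tested genes 25 were lower and 10 higher (median log2 -0.34). Among the lower ones were PSAT1 of serine synthesis (249.3 ± 14.6 CPM in hypoxia and 451.7 ± 11.0 CPM in normoxia, log2 -0.86 ± 0.05), the regulator TRIB3 (-0.98 ± 0.10) and the tRNA synthetase YARS (-0.61 ± 0.05). DDIT4, an inhibitor of mTORC1, had 375.3, 325.8, 334.5 and 191.7 CPM in hypoxia, against 33.04, 32.65, 29.56 and 33.88 CPM in normoxia (log2 3.25 ± 0.26, adjusted p = 3.76e-07). GDF15 (2.30 ± 0.27), PPP1R15A (2.17 ± 0.28) and ATF3 (2.15 ± 0.28) rose with it, and each was lowest of its group in hypoxia replicate 4, at 277.5, 190.4 and 99.56 CPM. DDIT4 is a HIF target also, and ATF3 an immediate early gene, so the lists share members. ATF4 itself was lower (log2 -0.34 ± 0.06).

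**Figure D3:**
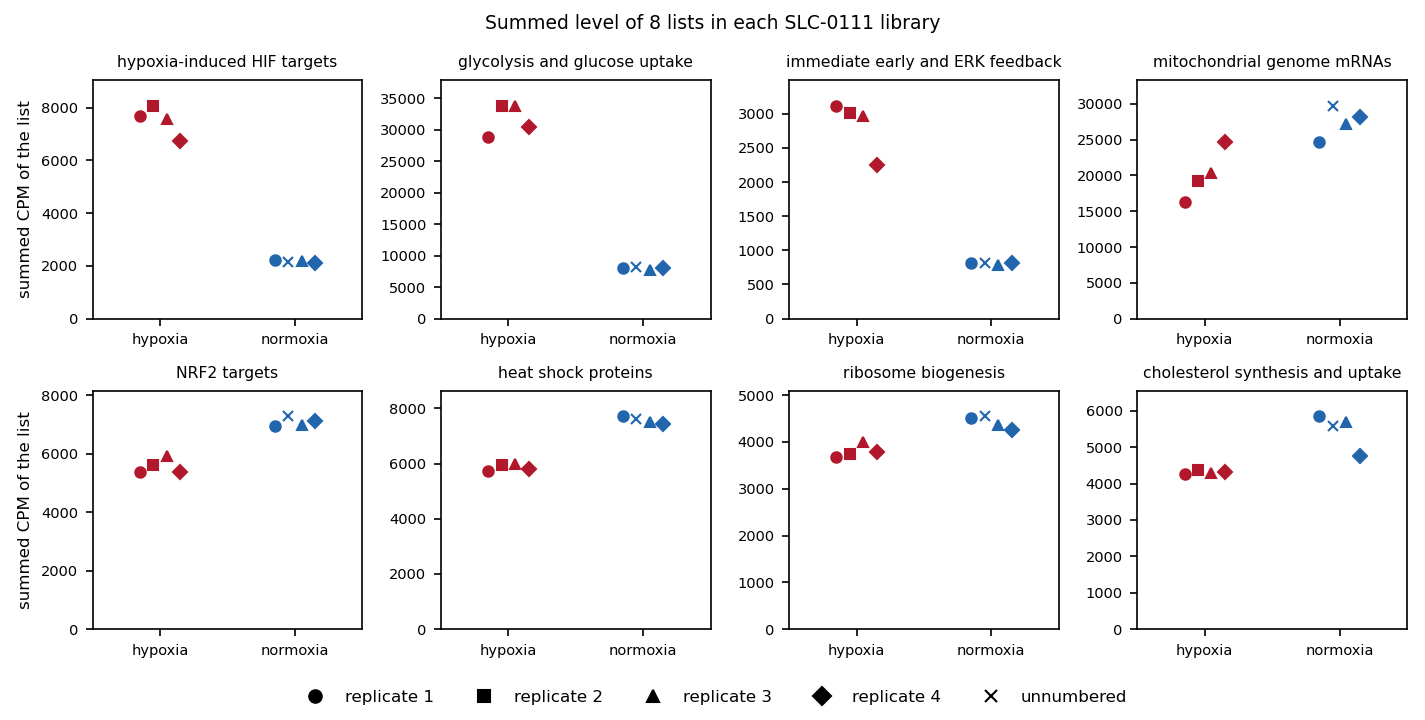
Summed TMM-scaled CPM of 8 gene lists in each SLC-0111 library, hypoxia (red) left of normoxia (blue), with marker shapes for replicate numbers and axes that start at 0. HIF targets, glycolysis and the list of immediate early and ERK feedback genes lie above normoxia in all 4 hypoxia libraries. Replicate 4 is lowest for the first and the last of these. NRF2 targets, heat shock, ribosome biogenesis and cholesterol synthesis lie below normoxia. For mitochondrial mRNAs hypoxia replicate 4 (24720 CPM) reaches the lowest normoxia library (24660 CPM).

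Proliferation genes changed little and in both directions. Of 31 mitosis genes 8 were higher and 2 lower with a median of log2 0.09, against 23.9% higher and 24.3% lower over all genes tested. KIF11, a spindle motor, had 88.90 ± 2.67 CPM in hypoxia and 74.32 ± 1.13 CPM in normoxia (log2 0.26 ± 0.04, adjusted p = 3.58e-05), whereas CCNB1, the mitotic cyclin, had 158.8 ± 5.73 CPM in hypoxia and 193.0 ± 12.0 CPM in normoxia (-0.28 ± 0.08). The number of higher genes was 5 with scaling by library size alone and 14 with a filter of 1 CPM in 4 libraries. It was 13 when only the 8 SLC-0111 libraries were fitted and 17 with a replicate block over the numbered libraries. The lower count was 1 without hypoxia replicate 2 or 3. Of 37 replication genes 7 were higher and 9 lower, with PCNA, the sliding clamp, at 243.6 ± 11.6 CPM in hypoxia and 319.9 ± 24.2 CPM in normoxia (-0.39 ± 0.10). Without hypoxia replicate 1 these counts were 4 higher and 5 lower, without hypoxia replicate 2 the lower count was 6, and with a covariate for the protein-coding share the higher count was 2. Of 16 replication-dependent histones 11 were higher and 0 lower; these mRNAs lack a poly(A) tail and the family members are near-identical, so reads may be split between them. Of 25 CDK inhibitors, G1 cyclins, MYC and p53 targets 5 were higher and 9 lower, with a median of log2 -0.11. TIGAR was among the lower (log2 -1.12 ± 0.16). Of the higher, CDKN1B, a cell-cycle brake, had 383.2 ± 32.4 CPM in hypoxia and 190.0 ± 19.7 CPM in normoxia (log2 1.01 ± 0.08). GADD45B rose by log2 2.81 ± 0.32. CCND1, the G1 cyclin, was higher also, at 596.0 ± 21.2 CPM in hypoxia and 317.6 ± 3.40 CPM in normoxia. TNFSF10, the death ligand TRAIL, had 54.08, 66.08, 55.31 and 60.21 CPM in hypoxia, against 6.01, 5.93, 6.48 and 6.21 CPM in normoxia (log2 3.26 ± 0.09, adjusted p = 1.74e-18). Over the 19 genes of the BCL2 family and death receptors 8 were higher and 4 lower.

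Liver genes moved in opposite directions within the same class. The counts of this paragraph stand beside shares of 23.9% higher and 24.3% lower over all genes tested. Of 28 secretory and fetal liver genes 16 were lower and 10 higher. ALB, serum albumin, stood at 38.24 ± 2.12 CPM in hypoxia and 74.31 ± 10.8 CPM in normoxia (log2 -0.96 ± 0.08), and APOH fell by 1.09 on the log2 scale, while transferrin TF rose to 2823 ± 85.1 CPM in hypoxia, against 1263 ± 112 CPM in normoxia (1.16 ± 0.06), and APOC3 by log2 1.30 ± 0.06. Of 23 coagulation and complement genes 7 were higher and 2 lower, the complement proteins C3 (log2 1.10 ± 0.05) and C5 (-1.24 ± 0.06) having the steepest changes each way. The lower count was 1 without hypoxia replicate 2, 3 or 4, normoxia replicate 1 or 3, or the unnumbered normoxia library. Of 27 metabolic enzymes 6 were higher and 11 lower. PCK1 of gluconeogenesis had 13.37 ± 0.448 CPM in hypoxia and 3.49 ± 0.798 CPM in normoxia (1.96 ± 0.12), and GLUL, the glutamine synthetase, fell by 0.74 on the log2 scale. Of 18 genes of cytochromes P450, the aryl hydrocarbon receptor and nuclear receptors 9 were higher and 3 lower. CYP1A1, a target of the aryl hydrocarbon receptor, was among the lower, by 0.88 on the log2 scale (68.13 ± 5.75 CPM in hypoxia and 125.0 ± 6.61 CPM in normoxia). TIPARP of the same list rose by log2 1.86 ± 0.22 (101.8 ± 16.9 CPM in hypoxia and 27.98 ± 0.34 CPM in normoxia). NR0B2 (1.80 ± 0.23) and NR1I3 (1.03 ± 0.14) were higher too. Among lineage factors TBX3 (log2 1.45 ± 0.11) and SOX4 (1.15 ± 0.08) rose, and FOXA1 (-0.82 ± 0.06) and LIN28B (-1.75 ± 0.30) fell. Of the imprinted and oncofetal genes PEG3 rose by log2 0.83 ± 0.05 and PEG10 fell by 1.06 on the log2 scale. The duct markers summed to 1230 to 1470 CPM in hypoxia and 737 to 886 CPM in normoxia, chiefly KRT19; AQP1 was higher and CFTR lower (log2 -1.23 ± 0.07), and KRT7 had 23 counts over the 8 libraries. In bulk RNA fewer cells of a type and less RNA per cell cannot be told apart, and the part of duct markers in the liver gene values was not tested.

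The oxygen effect with SLC-0111 was then set against that with DMSO, in which other libraries make up both sides. With DMSO 4603 genes (25.0%) were higher and 4558 (24.8%) lower in hypoxia, together 9161 (49.8%), and at least 2-fold changes numbered 1495 upward (8.13%) and 321 downward (1.75%). Of the genes higher with SLC-0111, 3359 were also higher with DMSO (76.4% of the SLC-0111 calls and 73% of the DMSO calls), and 40 were lower with DMSO. Of the genes lower with SLC-0111, 3126 were lower with DMSO too (69.9% and 68.6%), and 34 were higher. The test of the difference itself, SLC-0111 minus DMSO, called 527 genes above 0 (2.87%) and 575 below 0 (3.13%), together 1102 (5.99%). Among genes higher with SLC-0111 the rise was larger than with DMSO in 197 and smaller in 290. Hypoxia DMSO replicate 3 had only 3.30 M counts, and without hypoxia DMSO replicates 1 and 3 the difference was called above 0 in 1717 genes and below 0 in 1237. Leaving out single libraries gave 254 to 1121 genes above 0 and 355 to 919 below 0. Both counts were highest without hypoxia DMSO replicate 1, the first was lowest without hypoxia SLC-0111 replicate 3 and the second without normoxia DMSO replicate 2.

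**Figure D4:**
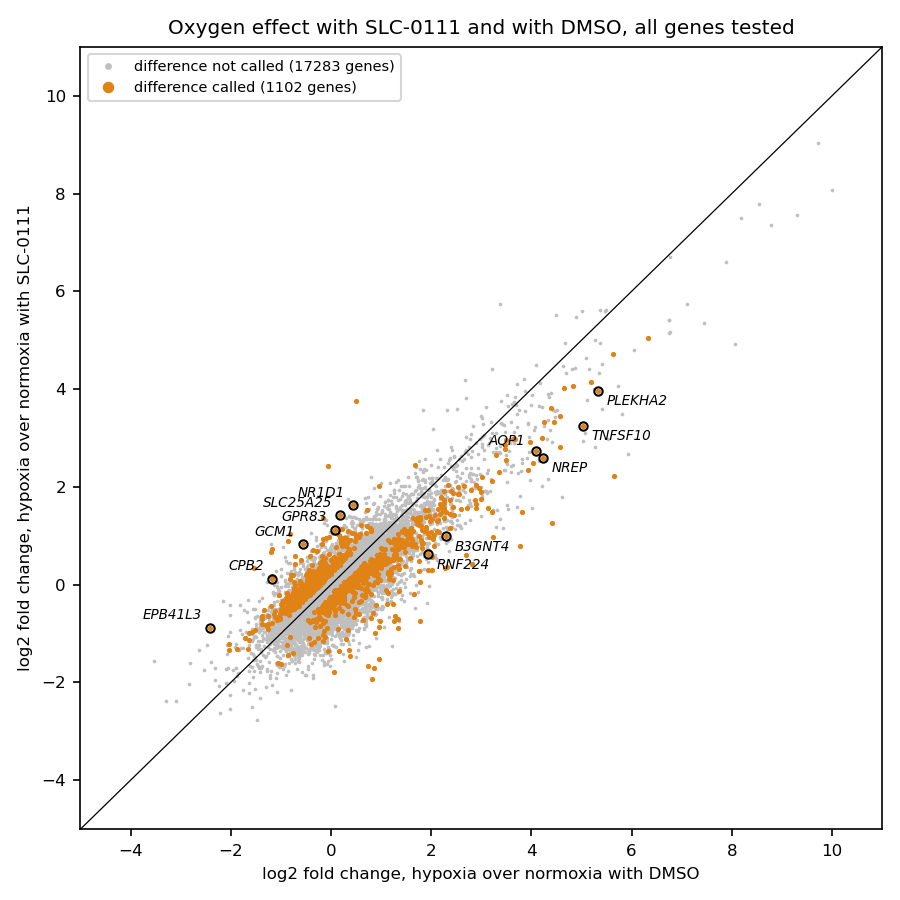
Fitted log2 fold change of hypoxia over normoxia with SLC-0111 (vertical) and with DMSO (horizontal) for all 18385 genes tested, with the 1102 genes whose difference was called in orange and the line of equal effect. The 12 circled genes are the 6 largest differences each way among called protein-coding genes that reached 5 CPM: TNFSF10, NREP, PLEKHA2, AQP1, RNF224 and B3GNT4 lie below the line, and EPB41L3, GCM1, CPB2, SLC25A25, NR1D1 and GPR83 above it.

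HIF targets rose less with SLC-0111 in a good part of the list. The difference was below 0 in 15 of 37 and above 0 in 0, and the medians of the oxygen effect were log2 1.80 with SLC-0111 and 2.20 with DMSO. Examples were BNIP3 (difference -0.54), CITED2 (-0.52 ± 0.10, adjusted p = 0.0036) and LOX (-0.78 ± 0.19, adjusted p = 0.0173). The count was 11 to 22 with single libraries left out and 25 without hypoxia DMSO replicates 1 and 3. For CA9 no difference was detectable (log2 -0.68 ± 1.15, adjusted p = 0.785), but 5 counts in normoxia with SLC-0111 are too few for this test to decide. CA9 averaged 26.52 ± 2.89 CPM in hypoxia with SLC-0111 and 56.16 ± 7.54 CPM in hypoxia with DMSO, which was not tested on its own. In normoxia it averaged 0.05 CPM with SLC-0111 and 0.06 CPM with DMSO. Of 19 glycogen genes 5 were below 0, PGM1 (-0.70 ± 0.09) and PPP1R3B (-0.91 ± 0.13) among them, and the count was 8 without hypoxia DMSO replicate 1, 9 without hypoxia DMSO replicates 1 and 3, and 3 without normoxia DMSO replicate 2. CA12 stood at 6.02 ± 0.629 CPM in hypoxia and 5.04 ± 0.359 CPM in normoxia with SLC-0111, and at 5.96 ± 0.611 CPM in hypoxia and 2.65 ± 0.392 CPM in normoxia with DMSO. The difference in its oxygen effect was log2 -0.95 ± 0.17 (adjusted p = 0.00127). The hypoxia means were close to each other and the normoxia means were not, which was not tested on its own.

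Several of the genes with the largest differences had unlike levels in normoxia. TNFSF10 had 58.92 ± 5.46 CPM in hypoxia and 6.16 ± 0.247 CPM in normoxia with SLC-0111, against 78.82 ± 10.3 CPM in hypoxia and 2.47 ± 0.347 CPM in normoxia with DMSO, a difference of log2 -1.77 ± 0.15 (adjusted p = 2.52e-07). AQP1, a water channel, had 79.17 ± 3.88 and 11.76 ± 1.44 CPM in hypoxia and normoxia with SLC-0111, against 114.5 ± 9.59 and 6.67 ± 1.07 CPM with DMSO (-1.35 ± 0.13, adjusted p = 1.59e-06). GPR83, a G protein-coupled receptor, had 22.75 ± 1.63 and 10.42 ± 1.08 CPM in hypoxia and normoxia with SLC-0111, against 20.49 ± 1.22 and 19.06 ± 0.518 CPM with DMSO (1.05 ± 0.10, adjusted p = 1.92e-06). In these genes the mean hypoxia levels with SLC-0111 and DMSO were nearer to each other, on a ratio scale, than the mean normoxia levels, which was so in 6 of the 12 genes named for the difference and the reverse in the other 6, EPB41L3 and GCM1 among them. EPB41L3, a membrane skeleton protein, fell with both, but less with SLC-0111 (log2 -0.88 with SLC-0111 and -2.41 with DMSO, difference 1.53 ± 0.21, adjusted p = 0.000129).

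Other genes changed in opposite directions or with 1 of the treatments. GCM1, a factor that drives placental trophoblast genes, had 28.72, 26.63, 29.80 and 23.11 CPM in hypoxia, against 15.14, 15.48, 14.60 and 15.49 CPM in normoxia with SLC-0111, a rise of log2 0.83 ± 0.08. With DMSO it fell to 9.05 ± 1.37 CPM in hypoxia, against 13.80 ± 0.48 CPM in normoxia (log2 -0.56, adjusted p = 2.56e-05), and the difference was 1.38 ± 0.12 (adjusted p = 4.32e-07). CPB2, the carboxypeptidase that slows clot lysis, had 22.75 ± 0.446 CPM in hypoxia and 21.07 ± 3.88 CPM in normoxia with SLC-0111, against 16.90 ± 1.98 CPM in hypoxia and 38.41 ± 2.06 CPM in normoxia with DMSO (difference 1.29 ± 0.14, adjusted p = 1.29e-05). NR1D1, the clock repressor, and SLC25A25, a mitochondrial carrier, had differences of log2 1.18 ± 0.29 and 1.24 ± 0.32 that lost the call under 8 and 16 of the alternatives.

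Mitosis genes were 8 higher and 2 lower in hypoxia with SLC-0111 and 3 higher and 15 lower with DMSO. The difference was called above 0 in 8 of 31, with TPX2 (0.28) and DLGAP5 (0.29 ± 0.07, adjusted p = 0.0198) among them. This count was unstable: leaving out single libraries gave 1 (without hypoxia SLC-0111 replicate 3) to 19 (without hypoxia DMSO replicate 1). It was 3 without hypoxia SLC-0111 replicate 2 or replicate 2 of either DMSO group, 4 without replicate 3 of either normoxia group, and 5 without hypoxia SLC-0111 replicate 1, normoxia DMSO replicate 1 or the unnumbered hypoxia DMSO library. It was 23 without hypoxia DMSO replicates 1 and 3. WNT targets had 12 higher and 4 lower with SLC-0111, and the difference was above 0 in 7 of 21 and below 0 in 1; LGR5 had 0.63 ± 0.08 (adjusted p = 3.36e-05), AXIN2 0.36 ± 0.07 (adjusted p = 0.00481) and NKD1 0.47 (adjusted p = 0.00261). On the list of 26 immediate early and ERK feedback genes 6 had a difference above 0 and 1 below 0. Feedback genes of ERK signalling were among the 6, such as DUSP6 (0.77), SPRY4 (1.00) and ETV5 (1.31). ETV5 averaged under 5 CPM in every group. The mitochondrial mRNAs had a median oxygen effect of log2 -0.55 with SLC-0111 and -0.96 with DMSO, with 2 of 13 differences called above 0, 1 to 7 with single libraries left out (most without hypoxia DMSO replicate 1) and 10 without hypoxia DMSO replicates 1 and 3.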

How the data were processed

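RNA of HUH6 cells was measured in 16 libraries, 4 in each of 4 groups. The authors deposited raw read counts per gene, and these count values were used as deposited; per the submitters' processing notes the tools included HISAT2, HISAT, HTSeq, MultiQC 1.10.1 and edgeR 3.4.0 with the GRCh38 build. The aligner's version and the strand setting are not given in the sources used here. Gene IDs, ends and strands of all 58735 genes matched GENCODE release 29.

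Columns were tied to samples by name; for 2 columns the name gave the group but not the replicate, and these are called unnumbered. Genes were filtered with filterByExpr, which left 18385, and scaled by TMM. edgeR 4.0.16 (R 4.3.3) fitted 1 mean per group over all 16 libraries (12 residual degrees of freedom, common biological coefficient of variation 0.074) with robust quasi-likelihood tests of hypoxia against normoxia with SLC-0111, the same with DMSO, and their difference. P-values were adjusted over all genes tested (Benjamini-Hochberg), and called means an adjusted p under 0.05. SE is the size of the log2 fold change over the square root of F, which is too small for genes near 0 counts in a group and is not given for CA9 and GABRA2 in the SLC-0111 contrast. Intervals of count ratios and floors of 3 counts cover counting error only. The procedure was tested on simulated data.

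The groups, lists and members were chosen with earlier results of these data known. Genes are named by rule: CA9 and CA12; of called protein-coding genes that averaged 5 CPM or more where higher and whose groups did not overlap, the 12 largest rises and falls by log2 and the 5 largest by CPM; the 6 largest differences each way; and up to 4 called members per list with the largest log2 fold change and at least 1 CPM. Other genes named were picked after their values were seen, as examples of their list. The 47 lists held 1111 entries, of which 1003 were tested. The printed promoters follow a rule that, with genes on chromosome 8 passed over, found only CA9 and BHLHE40, so ANKRD37 and MIR210HG were added. Alternatives were RLE and library-size scaling, other filters, DESeq2 1.42.0, limma-voom (limma 3.58.1), a fit of the compared groups only, a replicate block, a covariate for the protein-coding share, and leaving out libraries. Some results are not reported here.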

Additional observations from a re-analysis of the deposited data

Results flagged for a closer look

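In 30 of 412 tests of 4 libraries a single library lay far from the other 3 of its group, with a gap above Dixon's 95% critical value; chance flags about 1 group in 20. Hypoxia replicate 4 was the low one for BHLHE40 at 212.8 CPM (others 299.5 to 305.3), JUN at 512.2 CPM (others 713.6 to 731.9), ATF3 at 99.56 CPM (others 146.3 to 154.9) and MXD1 at 62.64 CPM (others 77.63 to 80.46). It was low as well for PCK1 at 12.7 CPM (others 13.56 to 13.62), NFIL3 at 68.71 CPM (others 90.19 to 90.99), NR0B2 at 1.455 CPM (others 2.499 to 2.681) and ID1 at 404.9 CPM (others 549.8 to 577.5). It was also below the others for PLIN2 at 107 CPM (others 138.4 to 142.9), C3 at 76.74 CPM (others 85.49 to 86.09), LGR5 at 54.79 CPM (others 59.19 to 59.88) and CDKN1B at 335 CPM (others 395.7 to 405.2). The same library was low for KDM6B at 174.2 CPM (others 194.6 to 195), HIST4H4 at 3.991 CPM (others 4.999 to 5.104) and C4A at 5.965 CPM (others 7.522 to 7.733). In that library MAT2A was the high one, at 38.04 CPM (others 28.82 to 29.62).

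Normoxia replicate 4 stood apart for MT1F at 17.71 CPM (others 21.3 to 21.98), NOP2 at 1.607 CPM (others 1.042 to 1.103) and MVD at 175.2 CPM (others 234.1 to 243.6), and for WIPI1 at 23.29 CPM (others 31.03 to 31.52) and BCAT1 at 27.85 CPM (others 23.88 to 24.5). Normoxia replicate 3 stood apart for PNCK at 0.2155 CPM (others 0.07905 to 0.09194), CKB at 897.9 CPM (others 1019 to 1044) and HILPDA at 4.202 CPM (others 4.827 to 4.91). Hypoxia replicate 2 stood apart for GNRH2 at 27.69 CPM (others 24.33 to 24.53) and IFIT3 at 6.857 CPM (others 8.148 to 8.3). Hypoxia replicate 1 stood apart for BHLHE41 at 0.6702 CPM (others 1.143 to 1.188) and BCAT1 at 10.26 CPM (others 8.844 to 9.069). The unnumbered normoxia library stood apart for TBX3 at 325.4 CPM (others 312.1 to 313.4) and HIST4H4 at 2.252 CPM (others 2.514 to 2.556).

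The test of the difference between oxygen effects, SLC-0111 minus DMSO, was passed by 42 of the 206 named genes, against 5.99% of all genes tested. The 12 genes named for the difference were chosen by this same test, so the count is no support for it. A rise smaller with SLC-0111 than with DMSO, by the log2 difference given, was called for FGD5 -1.29, GNRH2 -0.90, PLEKHA2 -1.37, LOX -0.78, TNFSF10 -1.77, PGM1 -0.70, AQP1 -1.35 and NREP -1.64. The same was called for GBE1 -0.48, LOXL3 -0.64, COL1A2 -0.72, CITED2 -0.52, PPP1R3B -0.91, GYS1 -0.37, AGPAT2 -0.46 and C3 -0.43. The same was called for P4HA2 -0.34, B3GNT4 -1.31, RNF224 -1.31, PDK3 -0.68 and CA12 -0.95. A rise larger with SLC-0111 was called for NR1D1 1.18, SLC25A25 1.24, GPR83 1.05, AXIN2 0.36 and LGR5 0.63. A fall smaller with SLC-0111 was called for SQSTM1 0.28, CTSA 0.33, EPB41L3 1.53, HSPH1 0.35, APOH 0.63, GPAM 0.81, HSD17B2 0.56 and THBS1 0.70. A fall larger with SLC-0111 was called for PEG10 -0.24, C5 -0.35, EIF5 -0.64 and BCAT1 -0.58. The fitted effects had opposite signs for GCM1 1.38, CA4 0.65, DLGAP5 0.29 and CPB2 1.29.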

How the results depend on the processing

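The numbers of genes higher and lower with SLC-0111 stayed within 1.5 times their values under every alternative run, and leaving out single libraries gave 4040 to 4307 higher and 3617 to 4401 lower. Of 3707 values for the 206 genes named for the SLC-0111 contrast, 3666 kept their direction and their side of the threshold, 37 lost the call, 4 gained it (all CA12) and 0 reversed; the changes fell on 10 genes. RPS6 lost its call under 12 settings, GLS2 under 8 and PSMB10 under 7. Of 312 values for the 12 genes named for the difference, 25 lost the call, for NR1D1, SLC25A25 and PLEKHA2. The difference between SLC-0111 and DMSO was less stable. Genes above 0 numbered 350 with library-size scaling, 814 with no filter on low counts, 1717 without hypoxia DMSO replicates 1 and 3 (chosen after seeing the data), and 254 to 1121 with single libraries left out. Genes below 0 numbered 1237 without those 2 replicates and 355 to 919 with single libraries left out. The cause was not tested. Deviations of same-numbered libraries correlated at 0.156, -0.029 and 0.351 for numbers 1, 3 and 4. Those of libraries without a shared number correlated at -0.3 to 0.176. These few values do not settle whether same-numbered libraries pair. The replicate block, over the numbered libraries, gave 4532 higher and 4084 lower with SLC-0111, against 4323 and 3858 in the same libraries with no block, and 1092 above 0 and 789 below 0 for the difference, against 293 and 330. With the block 17 of 31 mitosis genes were higher with SLC-0111 and 7 of 16 histone genes, against 8 and 11 in all libraries. Depth limits genes near silent in normoxia, where 3 counts stand for 0.0748 to 0.139 CPM, and in hypoxia DMSO replicate 3, with 3.30 M counts.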

Other observations

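Iron and metal genes moved in hypoxia with SLC-0111, where 23.9% of all genes tested were higher and 24.3% lower. Of 19 iron genes 10 were higher and 4 lower: HJV, a coreceptor that drives hepcidin, had 6.65 ± 0.649 CPM in hypoxia and 2.18 ± 0.515 CPM in normoxia (SD, n = 4 each; log2 1.64 ± 0.14), BMP6, its ligand, rose by log2 1.31 ± 0.24, and the iron importer SLC11A2 by 0.90 ± 0.05. Of 12 genes of metallothioneins and zinc transport 7 were higher and 1 lower, with MT1F at 40.29 ± 3.33 CPM in hypoxia and 20.60 ± 1.95 CPM in normoxia (log2 0.97 ± 0.08) and MT2A at log2 0.85 ± 0.07. These metallothioneins are near-identical copies, so reads may be split between them.

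Of 28 lysosome and autophagy genes 8 were lower and 4 higher, against 24.3% lower and 23.9% higher over all genes tested. WIPI1, which binds early autophagosomes, had 15.41 ± 0.822 CPM in hypoxia and 29.28 ± 4.00 CPM in normoxia (log2 -0.92 ± 0.09), and the protease CTSA fell by 0.51 on the log2 scale. Of 18 genes of MHC class I and the interferon response 7 were lower and 1 higher, IFIT3 (log2 0.60 ± 0.11), with 2 higher without normoxia replicate 3. TAP1, a peptide transporter, had 2.94 ± 0.256 CPM in hypoxia and 4.92 ± 0.246 CPM in normoxia (log2 -0.76 ± 0.11). Of 15 long noncoding RNAs 3 were higher and 5 lower, and 5 were higher with a covariate for the protein-coding share. GAS5 had 108.9 ± 5.06 CPM in hypoxia and 149.3 ± 4.27 CPM in normoxia (log2 -0.46 ± 0.05), and ZFAS1 fell by 0.63 on the log2 scale; both host small nucleolar RNAs.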
